A study of Mus musculus with 8 samples.

Results

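The genes described here build the nuclear pore or carry cargo through it. They were chosen by name from the deposited expression table: the nucleoporins (Nup and Nupl symbols), the importins and transportins (Kpna, Kpnb, Ipo and Tnpo), the exportins (Xpo and Cse1l, with Xpo5 left out), the Ran cycle genes (Ran, Ranbp1, Rangap1, Rcc1) and the pore genes Tpr, Ranbp2, Pom121, Ndc1, Aaas and Rae1. The rule took 56 of the 38924 genes in the table, each with a single line. Those that reached 1 in 2 or more libraries were tested, which took in 54 members and 17698 genes in all. The 2 that were not tested were Kpna7, an importin alpha gene known from oocytes, at 0.0063 to 0.24 in all 8 libraries, and Nup210l, a relative of Nup210, at up to 0.064.

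Transcripts were measured by RNA sequencing in 8 libraries, each made from the pooled lysate of about 50 embryos of C57BL/6 mothers. Inner cell mass (ICM, 3 libraries) came from day 3.5 blastocysts whose outer trophectoderm had been lysed with antibody and complement. Diapaused ICM (3 libraries) came from blastocysts held in diapause, a reversible arrest before implantation, by tamoxifen and 0.5 mg of Depo Provera given on day 3.5, and collected 5 days later. Epiblast (2 libraries) was dissected from post-implantation embryos at day 6.5, which received no such treatment. All libraries share the strain label and the sex label female, and no label names a genetic change. The p-values therefore cover the spread between pools, of which each group has 2 or 3. Only the diapaused group was treated, and it was also collected later than the ICM group, so arrest, hormone treatment and age cannot be told apart. Levels are in adjusted TPM, as the deposited header calls them, and means are given ± SD (n = 3, 3 and 2). TPM stands for a transcript abundance per unit of transcript length, and how it was adjusted is not given. Differences are on the scale log2(adjusted TPM + 1) with ± SE, where 1 stands for a doubling and low genes are understated. The p-values are from limma's moderated test, two-sided, adjusted over all 17698 genes.

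The nuclear pore is a channel of stacked protein rings set in the nuclear envelope. A Y-shaped complex forms its outer rings, an inner ring links these to the membrane, nucleoporins rich in phenylalanine and glycine fill the channel, filaments face the cytoplasm and a basket faces the nucleus. Proteins with a nuclear localisation signal are bound by an importin alpha, which docks on importin beta (Kpnb1), while other importins, transportins and exportins bind their cargo directly. The small GTPase Ran gives the direction: Rcc1 on chromatin loads it with GTP, which releases import cargo and binds export cargo, and Rangap1 with Ranbp1 and Ranbp2 ends the cycle in the cytoplasm. In pluripotent cells Kpna2 is the importin alpha best known for carrying Oct4, the product of Pou5f1.

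Group names follow the sample titles, and most primed markers set the epiblast libraries apart. Of 7 tested primed markers 6 were higher in epiblast than in diapaused ICM and 1, Lefty2, was lower (18.6% and 16.0% of all tested genes). Among the 6, Fgf5, Pou3f1 and Sox3 passed the filter only through the epiblast libraries. The filter thus favoured a higher level there, and the count is a description, not a test of the group names. Pou5f1, Fgf5 and Sox2 were not called between diapaused ICM and ICM, though the Pou5f1 values did not overlap (100 to 115 against 118 to 135). Of 10 epiblast and ICM markers 1, Tdgf1, was called lower in diapaused ICM than in ICM (-1.13 ± 0.31) and 0 higher. Of the 7 tested primed markers 1, Dnmt3b, was called lower (-1.34 ± 0.35) and 0 higher. Over all tested genes 5.81% were lower and 7.52% higher. Pou5f1 was at 66.2 to 135 in every library, the primed marker Fgf5 at 68.9 and 145 in epiblast and at most 1.07 elsewhere, and Sox2 was low throughout, at 0.994 to 4.68. The summed adjusted TPM of a library ran from 720674 to 1179026 and the genes at 1 or more from 14634 to 15130. Read depth is unknown, so no counting error is given. Npm1, a nucleolar chaperone gene, took 8.41% and 9.71% of the sum in epiblast and 0.978% to 3.21% in the others. Leaving out such abundant genes and equalizing the rest moved the median difference of all genes between diapaused ICM and ICM from 0.00 to -0.24, and the split of all called genes from 1331 higher and 1029 lower to 846 and 1765. This rescaling also levels the unequal sums, which were 983116, 720674 and 942015 in ICM and 1179026, 1108063 and 925053 in diapaused ICM. The parts of the sums and of the abundant genes in the shift were not tested separately. In these pooled samples fewer cells of a type and less RNA per cell cannot be told apart.

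Of the 54 tested pore and transport genes 8 fell in diapaused ICM against ICM and 0 rose: the importin alpha genes Kpna1, Kpna2 and Kpna3, importin beta (Kpnb1), Ipo7, the Ran exchange factor Rcc1 and the scaffold nucleoporins Nup35 and Nup133. That is 14.8% of members, where 5.81% of all tested genes were called lower and 7.52% higher. At an unadjusted p under 0.05, 16 members were lower and 0 higher, beside 12.6% and 14.7% of all tested genes. The members' median difference was -0.26, with 41 negative and 13 positive, against 0.00 for all tested genes. The groups did not overlap in 16 members (30.7% of all tested genes), of which 15 were lower (14.4%) and 1, Nup62, was higher (16.4%). In either direction 14.8% of members and 13.3% of all tested genes were called. After rescaling without abundant genes 14 members were called lower and 0 higher, and their median of -0.57 stood against -0.24 for all genes. The count of 8 fell to 3 without ICM replicate 1 or diapaused ICM replicate 1 and to 4 without ICM replicate 3 or diapaused ICM replicate 2. Those called in all 15 alternative analyses were Ipo7, Kpnb1 and Nup35.

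In epiblast the members went both ways against ICM and mostly up against diapaused ICM. Against ICM 8 rose (14.8%, with 16.7% of all tested genes) and 3 fell (5.56%, with 13.3%), in all 11 of 54 members, where 30.1% of all tested genes were called. At an unadjusted p under 0.05, 10 were higher (24.1% of all tested genes) and 5 lower (18.0%), and the groups did not overlap in 31 members (59.0%), of which 18 were higher (33.9%) and 13 lower (25.0%). The median was 0.08, and 0.14 over all tested genes. After rescaling without abundant genes these medians were -0.12 and -0.01, and all called genes went from 2963 higher and 2361 lower to 1856 and 2675. Against diapaused ICM 14 rose (25.9%, with 18.6% of all tested genes) and 2 fell (3.70%, with 16.0%), in all 16 (34.5%), and the median was 0.35, with 0.11 over all tested genes. At an unadjusted p under 0.05, 19 were higher (25.2%) and 5 lower (20.8%), and the groups did not overlap in 33 members (61.4%), of which 26 were higher (34.1%) and 7 lower (27.3%). Both comparisons rest on 2 epiblast libraries. Against ICM the calls went to 1 higher and 1 lower without epiblast replicate 1, to 3 and 0 without replicate 2, to 5 and 3 without ICM replicate 1 and to 4 and 3 after the rescaling. Against diapaused ICM they went to 5 and 0 without epiblast replicate 1 and to 6 and 1 without epiblast replicate 2. The 3 comparisons share libraries in pairs and are not independent of each other.

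**Figure D1:**
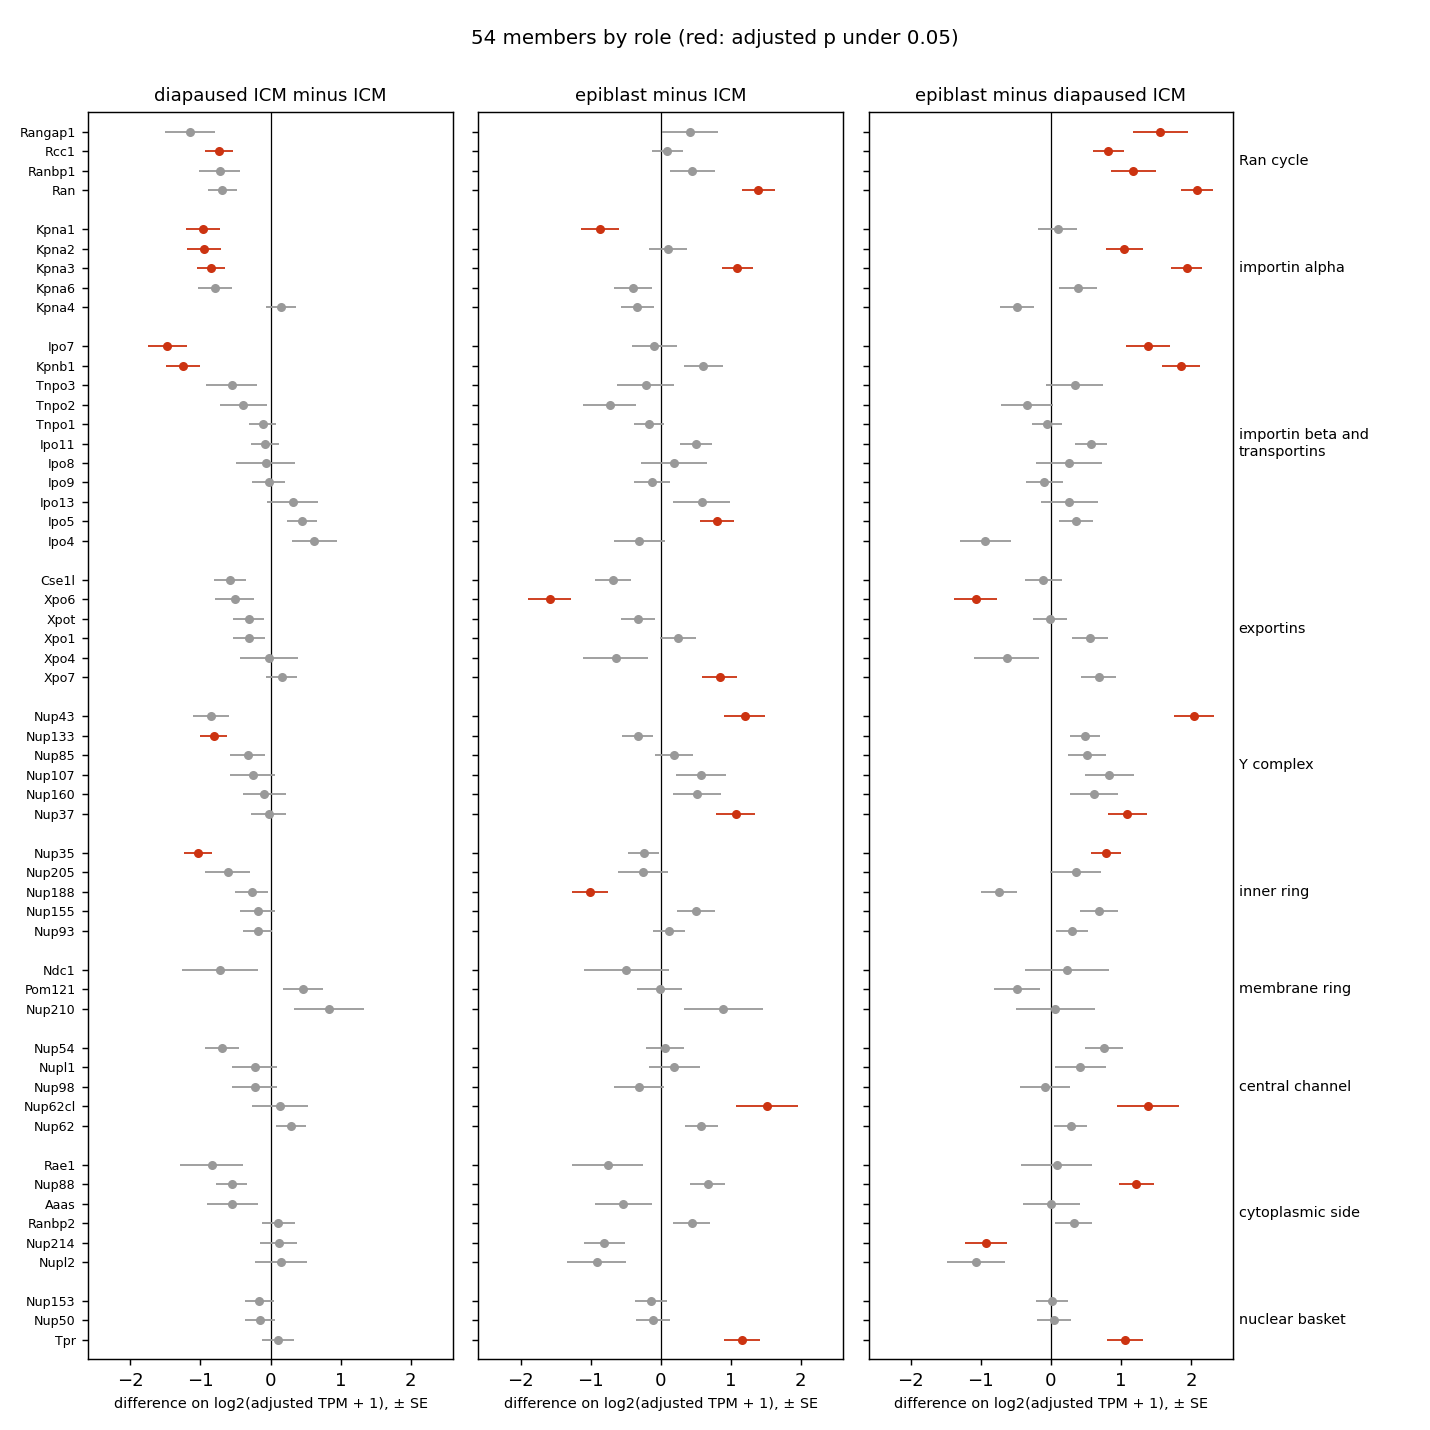
Difference on log2(adjusted TPM + 1), ± SE, of the 54 tested members in 3 comparisons, grouped by role, with red for an adjusted p under 0.05. In the left panel all 8 red points lie below 0, in the right panel 14 of 16 lie above it.

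**Figure D2:**
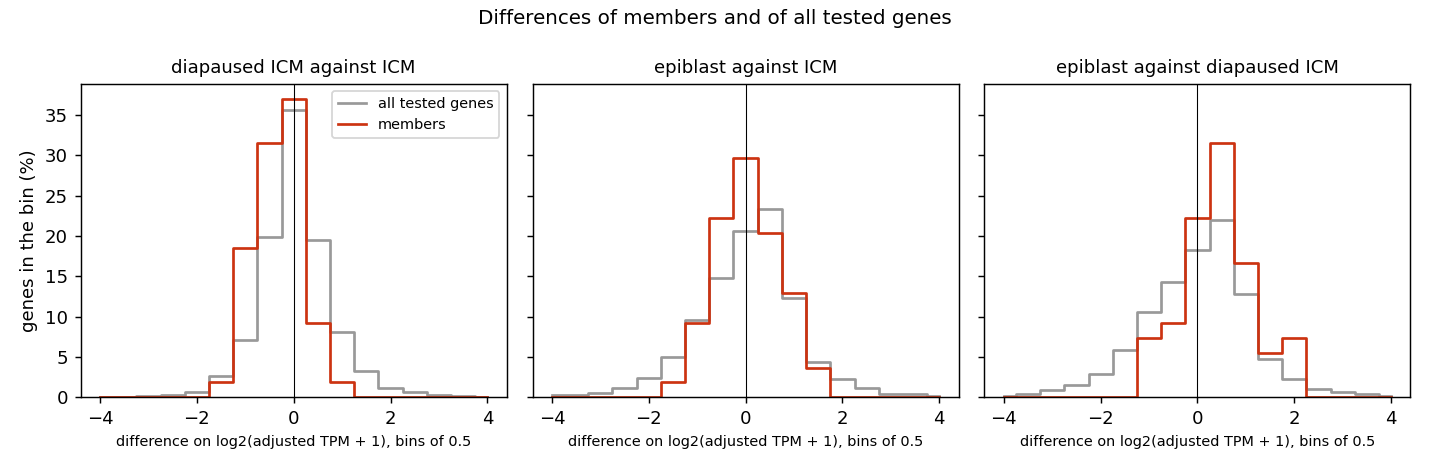
Percent of genes per bin of 0.5 in the difference on log2(adjusted TPM + 1), for the 54 members (red) and all 17698 tested genes (grey). In diapaused ICM against ICM the members' median is -0.26 and that of all genes 0.00, and in epiblast against diapaused ICM they are 0.35 and 0.11.

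All 4 Ran cycle genes had their lowest mean in diapaused ICM and rose from there to epiblast (18.6% of all tested genes). Against ICM 1 of them, Rcc1, fell in diapaused ICM (5.81%). These directions held after rescaling without abundant genes. Ran itself (ENSMUSG00000029430) was at 261, 190.4 and 264 in ICM, 144, 139 and 155 in diapaused ICM and 628 and 618 in epiblast. No 2 groups overlapped. Against diapaused ICM it was 4.27-fold higher in epiblast (2.09 ± 0.23, adjusted p = 3.3e-04), and against ICM 2.61-fold (1.40 ± 0.23, adjusted p = 0.0028). The step from ICM to diapaused ICM missed the threshold (-0.69 ± 0.21, adjusted p = 0.06), and passed it after quantile normalization, after rescaling without abundant genes and without ICM replicate 2 (adjusted p = 0.0092 to 0.035). Rasl2-9, a near-identical copy of Ran, followed it at 24.0, 22.0 and 32.4 in ICM, 19.8, 14.7 and 20.7 in diapaused ICM and 58.2 and 49.3 in epiblast, so reads may have been divided between them and the level of Ran is uncertain to that extent.

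Rcc1, the exchange factor, was at 18.2, 14.3 and 17.0 in ICM, 9.65, 8.44 and 10.5 in diapaused ICM and 18.9 and 16.4 in epiblast. Its diapaused libraries lay below all others, and it fell against ICM (-0.73 ± 0.20, adjusted p = 0.044), though the call was lost without ICM replicates 1 or 3, diapaused ICM replicates 1, 2 or 3 or epiblast replicates 1 or 2, with the replicate block and with only the groups compared (adjusted p = 0.053 to 0.14). It was higher in epiblast than in diapaused ICM (0.82 ± 0.22, adjusted p = 0.021), a call lost without diapaused ICM replicate 2 or epiblast replicates 1 or 2 (adjusted p = 0.054 to 0.14). Rangap1, which switches Ran to its GDP form, was at 42.5, 39.1 and 69.1 in ICM, 21.9, 13.1 and 34.0 in diapaused ICM and 68.6 and 62.3 in epiblast. The spread within ICM and within diapaused ICM was wide, with replicate 3 high in both. Its difference from ICM was -1.15 ± 0.35, adjusted p = 0.066, past the threshold after rescaling without abundant genes, with the replicate block and without diapaused ICM replicate 3 (adjusted p = 0.024 to 0.033). Epiblast was higher than diapaused ICM (1.56 ± 0.40, adjusted p = 0.016), a call lost without epiblast replicates 1 or 2 and with no filter on low values (adjusted p = 0.066 to 0.095). Ranbp1, the cofactor of Rangap1, was at 242, 135 and 245 in ICM, 148, 98.1 and 120.4 in diapaused ICM and 294 and 255 in epiblast. ICM replicate 2, at 135, lay inside the diapaused range, the other 2 above it, and the difference from ICM passed the threshold without that library or after rescaling without abundant genes (adjusted p = 0.018 to 0.031), but not otherwise (-0.73 ± 0.29, adjusted p = 0.14). Epiblast was 2.25-fold above diapaused ICM (1.18 ± 0.32, adjusted p = 0.021), a call lost without diapaused ICM replicate 2 or epiblast replicates 1 or 2 and with no filter on low values (adjusted p = 0.058 to 0.12).

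**Figure D3:**
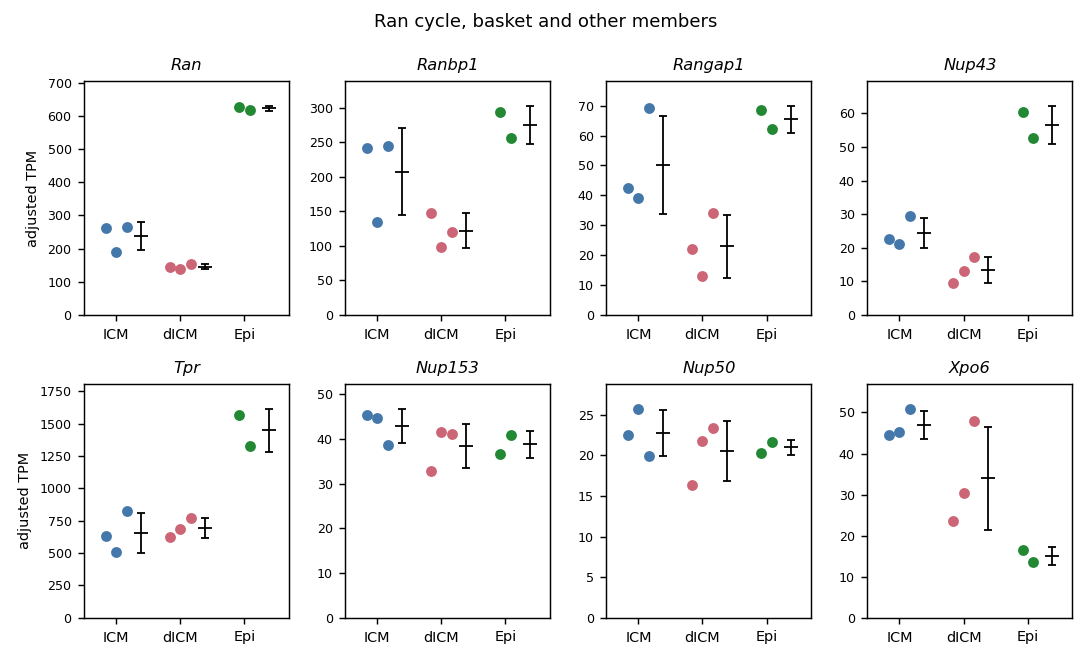
Adjusted TPM of 8 members in each library (points), with mean ± SD per group (black), for ICM (blue), diapaused ICM (dICM, red) and epiblast (Epi, green), each panel from 0. Ran, Ranbp1, Rangap1 and Nup43 have their lowest mean in diapaused ICM, Tpr is at 1329 and 1564 in epiblast and at 823 or below elsewhere, Nup153 and Nup50 overlap in all groups, and Xpo6 is lowest in epiblast.

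Among importin alpha genes 3 of 5 tested members fell in diapaused ICM against ICM, where 5.81% of all tested genes did. Kpna2 (ENSMUSG00000018362), the most abundant of them, was at 87.4, 62.9 and 86.1 in ICM, 31.8, 47.6 and 42.4 in diapaused ICM and 92.2 and 76.6 in epiblast. All diapaused values lay below all others, at 1.94-fold under the ICM mean (-0.94 ± 0.24, adjusted p = 0.033). That call was lost without ICM replicates 1 or 3, diapaused ICM replicates 1 or 3 or epiblast replicates 1 or 2, with no filter on low values, with the replicate block and with only the groups compared (adjusted p = 0.053 to 0.11). Epiblast overlapped ICM and was above diapaused ICM (1.05 ± 0.27, adjusted p = 0.017), a call lost without epiblast replicates 1 or 2 (adjusted p = 0.058 to 0.12). Kpna1 (ENSMUSG00000022905) was at 12.0, 14.1 and 16.7 in ICM, 4.98, 7.08 and 8.70 in diapaused ICM and 8.41 and 6.38 in epiblast. It fell in diapaused ICM (-0.96 ± 0.25, adjusted p = 0.033) and was also lower in epiblast than in ICM (-0.86 ± 0.28, adjusted p = 0.044), so that ICM was the high group. The first call was lost without ICM replicates 1, 2 or 3 or diapaused ICM replicates 1 or 2 and with no filter on low values (adjusted p = 0.059 to 0.10), the second without ICM replicates 1, 2 or 3, diapaused ICM replicate 2 or epiblast replicates 1 or 2, with no filter on low values and with the replicate block (adjusted p = 0.057 to 0.23).

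Kpna3 (ENSMUSG00000021929) showed the widest fold range of the 5 tested genes, at 6.20, 6.14 and 7.18 in ICM, 3.14, 2.55 and 3.90 in diapaused ICM and 15.8 and 14.2 in epiblast. The groups stood apart in the order diapaused ICM, ICM, epiblast. It fell in diapaused ICM (-0.85 ± 0.20, adjusted p = 0.024), a call lost without ICM replicates 1 or 3 or diapaused ICM replicates 1 or 2 (adjusted p = 0.061 to 0.073). It rose in epiblast, 4.69-fold over diapaused ICM (1.94 ± 0.22, adjusted p = 3.8e-04), with the call kept in all 15 alternative analyses, and 2.31-fold over ICM (1.09 ± 0.22, adjusted p = 0.0074), lost without epiblast replicate 1 (adjusted p = 0.068). Kpna6 was at 13.6, 14.3 and 14.6 in ICM, 5.52, 8.82 and 9.49 in diapaused ICM and 12.4 and 8.88 in epiblast. Its diapaused values lay below the ICM values, but the difference missed the threshold (-0.79 ± 0.24, adjusted p = 0.065) except after rescaling without abundant genes (adjusted p = 0.032).

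Kpna4 was the tested importin alpha gene whose diapaused and ICM values overlapped, at 10.9, 13.9 and 15.7 in ICM, 14.3, 13.7 and 17.0 in diapaused ICM and 9.41 and 11.5 in epiblast. Its difference from ICM was 0.15 ± 0.22, and -0.17 after rescaling without abundant genes, neither past the threshold. As a share of the summed importin alpha values it stood at 8.41%, 12.4% and 11.2% in ICM, 23.8%, 17.1% and 20.9% in diapaused ICM and 6.81% and 9.76% in epiblast. The diapaused shares lay above all others. A share needs no scaling between libraries. Kpna2 held 56.4% to 67.2% in ICM, 52.0% to 59.6% in diapaused ICM and 65.1% and 66.7% in epiblast, and Kpna3 4.77% to 5.50%, 3.20% to 5.25% and 11.4% and 12.1%. Diapaused ICM thus had less importin alpha transcript in sum, at 59.9 to 81.5 against 112 to 140 in ICM, with Kpna4 taking a larger part of it.

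**Figure D4:**
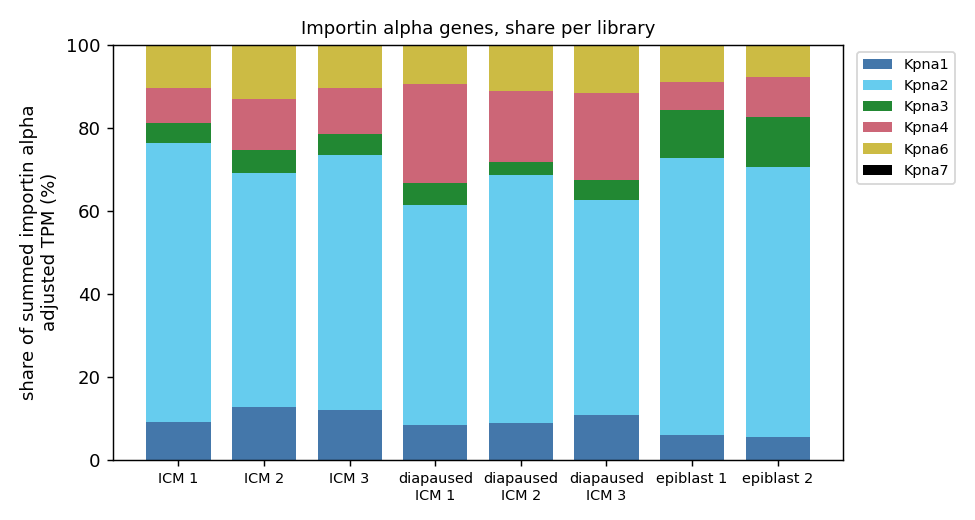
Share (%) of each importin alpha gene in the summed adjusted TPM of the family, per library. Kpna4 (rose) takes 17.1% to 23.8% in the diapaused libraries and at most 12.4% in the others, Kpna3 (green) takes 11.4% and 12.1% in epiblast, and Kpna7 is too small to be seen.

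Kpnb1 and Ipo7 had the lowest diapaused levels relative to ICM among the importin beta family. Kpnb1 (ENSMUSG00000001440), the importin beta that carries importin alpha with its cargo, was at 114, 97.8 and 128 in ICM, 39.2, 43.5 and 60.3 in diapaused ICM and 199 and 149.6 in epiblast. No 2 groups overlapped. It fell 2.38-fold in diapaused ICM (-1.25 ± 0.24, adjusted p = 0.011) and was 3.65-fold higher in epiblast than there (1.86 ± 0.27, adjusted p = 0.0013), and both calls held in all 15 alternative analyses. Epiblast lay above ICM without passing the threshold (0.61 ± 0.27, adjusted p = 0.12). Ipo7 (ENSMUSG00000066232), known as an importer of ribosomal proteins and histone H1, was at 41.4, 32.1 and 48.9 in ICM, 12.1, 11.6 and 19.0 in diapaused ICM and 30.4 and 46.9 in epiblast. Its diapaused values were the low ones, 2.87-fold under the ICM mean (-1.47 ± 0.28, adjusted p = 0.01), in all 15 alternative analyses too, while ICM and epiblast overlapped. Against diapaused ICM it rose in epiblast (1.38 ± 0.32, adjusted p = 0.01), a call lost without epiblast replicate 2 (adjusted p = 0.095).

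None of the other 9 importins and transportins was called in diapaused ICM against ICM by the same limma test, 0 of them also at an unadjusted p under 0.05. Ipo5, another carrier of ribosomal proteins and histones, was at 29.8, 38.4 and 33.0 in ICM, 47.6, 37.8 and 54.4 in diapaused ICM and 59.7 and 58.9 in epiblast. It rose in epiblast over ICM (0.80 ± 0.24, adjusted p = 0.036), a call lost without ICM replicates 1 or 3 or epiblast replicates 1 or 2, after rescaling without abundant genes and with the replicate block (adjusted p = 0.061 to 0.20). Tnpo1, which carries RNA-binding proteins, stayed within 31.8 to 42.4 in all 8 libraries, and Ipo9 within 9.06 to 14.1. Ipo4 was uneven, with 31.7 in diapaused ICM replicate 1 and 15.6 and 16.6 in the other 2, against 9.44 to 18.1 in ICM. Tnpo3, which carries splicing factors, was at 13.5, 11.9 and 33.1 in diapaused ICM and 21.5, 32.9 and 25.5 in ICM, and it was called lower only when diapaused ICM replicate 3 was left out (adjusted p = 0.044). Mean levels of the remaining members, Ipo8, Ipo11, Ipo13 and Tnpo2, ranged from 6.63 to 14.8 over the 3 groups.

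**Figure D5:**
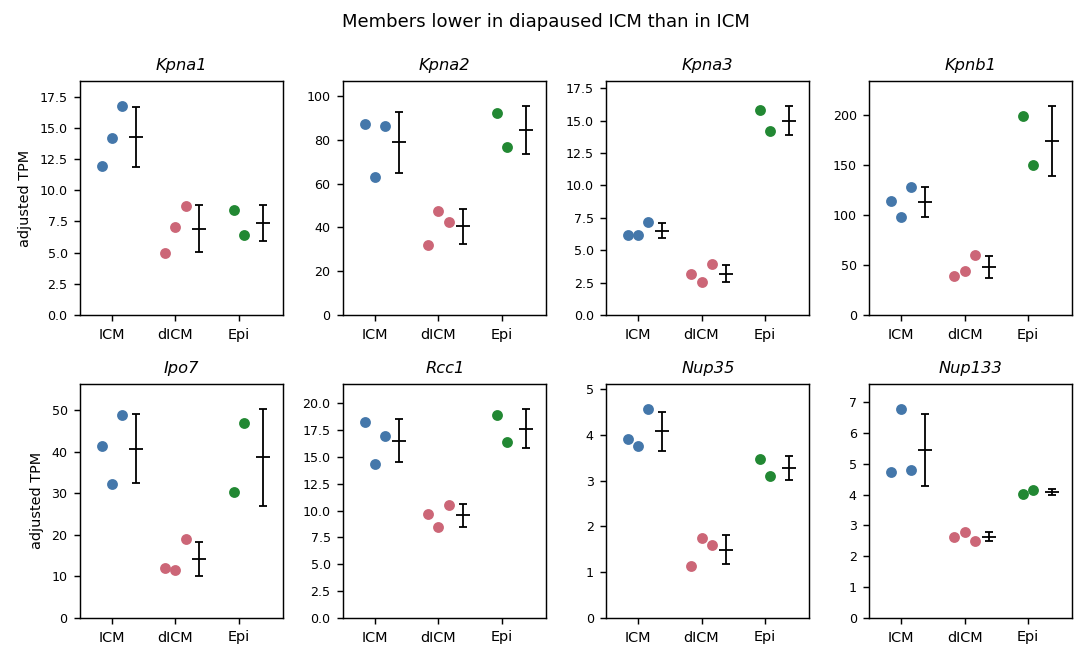
Adjusted TPM of the 8 members called lower in diapaused ICM, in each library (points), with mean ± SD per group (black), each panel from 0. In each panel the 3 diapaused values (dICM, red) lie below the 3 ICM values (blue), and Kpna3 and Kpnb1 are highest in epiblast (Epi, green).

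The upstream sequences of 5 transport genes are shown as examples, not as the full set of called members. Kpnb1, Ipo7 and Kpna2 fell in diapaused ICM, Ran was low there and high in epiblast, and Kpna4 was not called. Each is the 250 bases before the gene's outermost start site in RefSeq, read on the gene's strand, from the RefSeq annotation of GRCm38.p6, a newer build than the mm9 named in the submitters' processing notes. RefSeq start sites were matched for 46 of the 56 members. Not matched were Cse1l, Xpo4, Xpo7, Kpna1, Kpna3, Kpna6, Nup35, Nup210l, Nup43 and Nup85. Capitals mark matches, on either strand, to 6 short motifs: the E-box CACGTG, the CCAAT box, the NRF1 core (GCGC, any base, TGCGC), the ETS core CCGGAAG, the E2F core TTCCCGC and the CHR element TTTGAA of cell cycle genes.
Kpnb1: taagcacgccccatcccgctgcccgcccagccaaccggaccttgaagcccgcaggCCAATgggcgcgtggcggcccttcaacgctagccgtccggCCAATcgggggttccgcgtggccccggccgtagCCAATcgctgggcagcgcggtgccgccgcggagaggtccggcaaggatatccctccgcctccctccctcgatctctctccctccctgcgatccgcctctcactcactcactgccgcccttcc
Ipo7: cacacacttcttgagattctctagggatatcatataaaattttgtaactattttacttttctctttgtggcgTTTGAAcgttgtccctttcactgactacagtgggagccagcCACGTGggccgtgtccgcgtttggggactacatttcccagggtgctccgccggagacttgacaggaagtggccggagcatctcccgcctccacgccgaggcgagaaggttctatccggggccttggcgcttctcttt
Kpna2: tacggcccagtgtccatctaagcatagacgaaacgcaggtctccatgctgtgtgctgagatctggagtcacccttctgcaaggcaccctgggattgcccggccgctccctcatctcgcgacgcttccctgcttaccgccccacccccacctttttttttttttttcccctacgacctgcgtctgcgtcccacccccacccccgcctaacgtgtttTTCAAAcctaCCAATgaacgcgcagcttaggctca
Ran: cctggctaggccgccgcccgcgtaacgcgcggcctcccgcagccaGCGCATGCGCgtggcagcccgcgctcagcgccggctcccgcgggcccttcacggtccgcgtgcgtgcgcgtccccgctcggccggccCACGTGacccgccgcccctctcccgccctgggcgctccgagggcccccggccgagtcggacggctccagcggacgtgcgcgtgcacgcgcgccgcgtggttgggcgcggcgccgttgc
Kpna4: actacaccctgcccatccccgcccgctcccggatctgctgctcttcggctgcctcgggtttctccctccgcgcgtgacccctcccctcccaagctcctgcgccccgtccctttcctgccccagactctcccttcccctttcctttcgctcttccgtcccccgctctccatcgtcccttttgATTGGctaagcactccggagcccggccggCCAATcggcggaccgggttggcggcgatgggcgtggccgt

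Kpnb1 (chr11:97187893-97188142, minus strand) held 3 CCAAT boxes, starting at -195, -155 and -122 from the start site. Ipo7 (chr7:110018065-110018314, plus strand) held an E-box at -137 and TTTGAA at -178. Kpna2 (chr11:106999526-106999775, minus strand) held the CHR element, in its reverse form TTCAAA at -35, with a CCAAT box at -25. Ran (chr5:129019906-129020155, plus strand) held an E-box at -118 and an NRF1 core at -205. Kpna4 (chr3:69127093-69127342, minus strand), which was not called lower, held CCAAT boxes at -69 (as ATTGG) and -40. The CCAAT box was thus found in Kpnb1, Kpna2 and Kpna4, and the part of any motif in the levels was not tested. No base was shared by 2 motifs. Over the 46 members the E-box was in 17.4% (6.04% of all 27025 upstream windows), the CCAAT box in 45.7% (34.5%), the NRF1 core in 10.9% (3.85%), the ETS core in 15.2% (7.06%), the E2F core in 10.9% (3.86%) and TTTGAA in 26.1% (16.3%). The members' windows were also richer in G and C, with a median of 62.6% against 52.0%, and the part of base composition in these shares was not tested. The 27025 windows were not limited to genes that passed the expression filter, as nearly all members did. The part of that unlike choice of genes was not tested either. A match is a description of letters, not a bound site.

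None of the 6 exportins, which carry proteins and RNA out, was called in diapaused ICM by limma, with 1 lower and 0 higher at an unadjusted p under 0.05. Xpo1, the main exporter of proteins with a leucine-rich export signal, was at 79.3, 94.9 and 63.6 in ICM, 73.0, 61.3 and 55.7 in diapaused ICM and 102 and 84.8 in epiblast, with overlapping ICM and diapaused values. Cse1l, which returns importin alpha to the cytoplasm, was at 85.9, 139.9 and 128 in ICM, 78.5, 74.8 and 78.4 in diapaused ICM and 72.0 and 71.5 in epiblast. ICM was high, diapaused ICM lay below it (-0.58 ± 0.23, adjusted p = 0.15) and epiblast slightly below that, without a call in either step. The second step turned to 0.02 after rescaling without abundant genes. Xpo6, the exporter of actin, had the most negative difference between epiblast and ICM of all members. It was at 44.6, 45.2 and 50.8 in ICM, 23.5, 30.4 and 47.9 in diapaused ICM and 16.5 and 13.6 in epiblast. It fell 3.12-fold in epiblast against ICM (-1.58 ± 0.31, adjusted p = 0.0057), a call lost without epiblast replicate 2 (adjusted p = 0.05). It also fell against diapaused ICM (-1.07 ± 0.31, adjusted p = 0.026), a call lost without diapaused ICM replicate 3 or epiblast replicates 1 or 2, with no filter on low values, after rescaling without abundant genes and with the replicate block (adjusted p = 0.052 to 0.15). Diapaused ICM replicate 3, at 47.9, lay within the ICM range and the other 2 below it. Xpo7 went the other way, at 3.16, 4.93 and 5.10 in ICM, 5.62, 4.26 and 5.03 in diapaused ICM and 9.12 and 7.99 in epiblast. It rose in epiblast over ICM (0.84 ± 0.25, adjusted p = 0.031), a call lost without ICM replicate 1 or epiblast replicates 1 or 2, with no filter on low values, after rescaling without abundant genes and with the replicate block (adjusted p = 0.052 to 0.17). Xpo4 was uneven, with diapaused ICM replicate 1 at 28.5 and the other 7 libraries at 7.91 to 21.7, and Xpot, the tRNA exporter, was at 5.53 to 9.99 in all libraries.

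In the Y complex 1 of 6 members fell in diapaused ICM against ICM (5.81% of all tested genes). In epiblast 2 rose, both against ICM (16.7%) and against diapaused ICM (18.6%). Nup133 (ENSMUSG00000039509) was at 4.73, 6.78 and 4.81 in ICM, 2.61, 2.78 and 2.49 in diapaused ICM and 4.03 and 4.16 in epiblast. The diapaused values were tightly grouped and below all others, with a difference from ICM of -0.81 ± 0.20, adjusted p = 0.027, a call lost without ICM replicates 1 or 2 or diapaused ICM replicates 1, 2 or 3 (adjusted p = 0.056 to 0.066). Nup43 was at 22.5, 21.0 and 29.4 in ICM, 9.49, 13.1 and 17.3 in diapaused ICM and 60.6 and 52.7 in epiblast. No 2 groups overlapped. It was 4.26-fold higher in epiblast than in diapaused ICM (2.04 ± 0.29, adjusted p = 0.0011), a call kept in all 15 alternative analyses, and 2.33-fold higher than in ICM (1.20 ± 0.29, adjusted p = 0.015), lost without epiblast replicates 1 or 2 and after rescaling without abundant genes (adjusted p = 0.052 to 0.11). Its diapaused level missed the threshold against ICM (-0.85 ± 0.26, adjusted p = 0.063) and passed it after quantile normalization, after rescaling without abundant genes and without diapaused ICM replicate 3 (adjusted p = 0.026 to 0.043). Nup37, which sits beside Nup160, was at 4.21, 4.72 and 7.13 in ICM, 5.57, 3.89 and 6.15 in diapaused ICM and 10.7 and 13.6 in epiblast. Diapaused and ICM values overlapped, and epiblast was high, against ICM (1.07 ± 0.28, adjusted p = 0.021) and against diapaused ICM (1.09 ± 0.28, adjusted p = 0.017). The first call was lost without ICM replicate 1 or epiblast replicates 1 or 2, with no filter on low values and after rescaling without abundant genes (adjusted p = 0.055 to 0.13), the second without epiblast replicates 1 or 2 (adjusted p = 0.056 to 0.11). Nup107, Nup85 and Nup160, which share the complex with them, had mean levels of 9.38 ± 0.854, 46.0 ± 5.97 and 17.3 ± 7.62 in ICM and 8.27 ± 4.07, 37.1 ± 9.37 and 15.1 ± 0.619 in diapaused ICM, with overlapping values.

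In the inner ring Nup35 (ENSMUSG00000026999) was at 3.91, 3.75 and 4.56 in ICM, 1.13, 1.75 and 1.59 in diapaused ICM and 3.47 and 3.09 in epiblast. The diapaused libraries were low, 2.74-fold under ICM (-1.03 ± 0.20, adjusted p = 0.0096), in all 15 alternative analyses as well. Epiblast was higher than diapaused ICM (0.79 ± 0.22, adjusted p = 0.023), a call lost without diapaused ICM replicate 1 or epiblast replicates 1 or 2 (adjusted p = 0.06 to 0.13). Nup93, the most abundant inner ring gene, was not called, at 57.2 ± 9.90 in ICM, 49.8 ± 2.50 in diapaused ICM and 61.9 ± 4.51 in epiblast. Nup188, a large scaffold protein, was at 10.1, 14.2 and 10.7 in ICM, 7.16, 10.1 and 11.3 in diapaused ICM and 5.47 and 4.99 in epiblast and fell against ICM (-1.01 ± 0.26, adjusted p = 0.019), a call lost without epiblast replicates 1 or 2 (adjusted p = 0.092 to 0.11). Nup205, related to Nup188, was at 4.45, 9.27 and 4.87 in ICM, 2.80, 5.01 and 3.03 in diapaused ICM and 6.40 and 3.52 in epiblast, with overlapping groups, and the difference between these 2 genes' changes was not tested. Nup155 was at 8.40 to 14.6 in blastocyst libraries and at 16.0 and 21.5 in epiblast, without a call.

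The membrane ring showed no call, and its values were uneven within groups. Nup210, a membrane nucleoporin known to rise as cells differentiate, was at 2.69, 1.68 and 4.26 in ICM, 2.29, 4.88 and 14.2 in diapaused ICM and 6.61 and 5.35 in epiblast. Diapaused ICM replicate 3, at 14.2, stood above every other library, and the other diapaused values were 2.29, inside the ICM range, and 4.88, just above it. Ndc1 was also highest in replicate 3 of both blastocyst groups, at 53.5 in ICM and 41.7 in diapaused ICM, against 9.73 to 30.8 in their other libraries. Pom121 was at 11.2 in diapaused ICM replicate 3 and at 3.89 to 5.85 in the other 7. That library also had the highest summed trophectoderm markers, 187 against 41.1 to 67.4 in the other 7, for the most part through Krt18. The part of trophectoderm in these values was not tested.

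In the central channel Nup62, the main glycine-phenylalanine protein there, was at 22.2, 26.5 and 27.7 in ICM, 31.1, 31.1 and 31.9 in diapaused ICM and 45.8 and 32.1 in epiblast. It was the 1 member with every diapaused value above every ICM value, by 0.30 ± 0.21, adjusted p = 0.42, a difference that went to -0.0306 after rescaling without abundant genes. Nup54, its partner, was at 21.1, 16.5 and 15.6 in ICM, 8.69, 9.23 and 14.2 in diapaused ICM and 20.5 and 16.6 in epiblast. Its diapaused values lay below the ICM values (-0.70 ± 0.25, adjusted p = 0.10), with a call only after rescaling without abundant genes (adjusted p = 0.046). Nup62cl, a relative of Nup62, was close to the filter in blastocysts, at 0.302 to 2.72, and at 4.10 and 4.98 in epiblast, higher than in ICM (1.52 ± 0.44, adjusted p = 0.031) and in diapaused ICM (1.39 ± 0.44, adjusted p = 0.039). The first call was lost without ICM replicates 2 or 3 or epiblast replicates 1 or 2, with a pseudocount of 0.1 and with no filter on low values (adjusted p = 0.064 to 0.15), the second without ICM replicate 3, diapaused ICM replicates 1 or 2 or epiblast replicates 1 or 2, with a pseudocount of 0.1, with no filter on low values and with only the groups compared (adjusted p = 0.05 to 0.18). Nupl1, which binds both, was at 2.47 to 7.66 in all libraries. Nup98 was low, at 1.33 to 4.63. The table gives it 1 transcript, so the level may not cover all its products.

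On the cytoplasmic side Nup88 and Nup214, which bind each other in the pore, moved in opposite directions between diapaused ICM and epiblast. Nup88 was at 22.8, 30.6 and 30.1 in ICM, 15.4, 20.4 and 20.1 in diapaused ICM and 49.6 and 39.9 in epiblast. No 2 groups overlapped, and epiblast was 2.40-fold above diapaused ICM (1.22 ± 0.25, adjusted p = 0.0066), a call lost without epiblast replicate 1 (adjusted p = 0.068). Nup214 was at 30.3, 20.6 and 20.3 in ICM, 22.3, 25.2 and 29.3 in diapaused ICM and 9.96 and 16.7 in epiblast. Epiblast was the low group, 1.92-fold under diapaused ICM (-0.92 ± 0.30, adjusted p = 0.039), a call lost without diapaused ICM replicates 1, 2 or 3 or epiblast replicate 1, with no filter on low values, after quantile normalization, after rescaling without abundant genes and with the replicate block (adjusted p = 0.051 to 0.29). The difference between their changes was not tested. Ranbp2, the filament protein that holds Rangap1 at the pore, was at 7.26 to 13.8 in all libraries, with its epiblast values above the others. Rae1, which has roles in mRNA export and the spindle, ranged from 15.8 to 60.5 within ICM, and its groups overlapped. Aaas and Nupl2 had no call, with means of 7.98, 5.65 and 5.08 and of 2.42, 2.85 and 0.725 in ICM, diapaused ICM and epiblast.

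Tpr (ENSMUSG00000006005), the filament protein of the nuclear basket, had the highest adjusted TPM of all members, above 98.5% or more of tested genes in each group. It was at 630.1, 511 and 823 in ICM, 625, 685 and 773 in diapaused ICM and 1564 and 1329 in epiblast. ICM and diapaused ICM overlapped (0.11 ± 0.23, adjusted p = 0.82, and -0.23 after rescaling without abundant genes), and both epiblast libraries were above all others. Epiblast was 2.21-fold above ICM (1.17 ± 0.26, adjusted p = 0.01) and 2.08-fold above diapaused ICM (1.06 ± 0.26, adjusted p = 0.013), and both calls were lost without epiblast replicate 1 (adjusted p = 0.086 and 0.096). The table joins 14 transcripts under Tpr, and which of them carry the signal is not given. Its basket partners were not called. Nup153, which anchors Tpr, was at 45.4, 44.7 and 38.6 in ICM, 32.8, 41.4 and 41.1 in diapaused ICM and 36.7 and 41.0 in epiblast, and Nup50, a cofactor of importin cycling, at 22.5, 25.7 and 20.0 in ICM, 16.4, 21.8 and 23.4 in diapaused ICM and 20.3 and 21.6 in epiblast. In both the 3 groups overlapped throughout, with differences of at most 0.16 in size, and of at most 0.49 after rescaling without abundant genes. Without Tpr the members summed to 1593 to 1798 in ICM, 1083 to 1333 in diapaused ICM and 2144 and 2293 in epiblast. As a share of each library's summed value, which is not equal between libraries, that was 0.172% to 0.221%, 0.0977% to 0.144% and 0.202% and 0.211%, so that diapaused ICM was below the others on both scales and ICM and epiblast overlapped on the second.

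Other genes of the pathway came from lists of non-members. Of 21 further pore and transport genes 2 rose and 2 fell in diapaused ICM against ICM, close to the 7.52% and 5.81% of all tested genes. The lowest adjusted p-values were those of Sec13, shared by the Y complex and COPII coats (-1.05 ± 0.21), Phax, for export of spliceosomal RNA (1.11 ± 0.26), and Ranbp6, an importin-like gene (0.86 ± 0.22). In epiblast 5 rose and 3 fell against ICM (16.7% and 13.3% of all tested genes), led by Ncbp2 (-1.45 ± 0.26), Sec13 (-1.22 ± 0.23) and Ranbp17 (-2.35 ± 0.47), and 5 rose and 2 fell against diapaused ICM (18.6% and 16.0%), among them Nutf2, which returns Ran to the nucleus (1.21 ± 0.25), and Ranbp17 (-2.28 ± 0.47). Of 22 genes of bulk mRNA export 3 fell in diapaused ICM against ICM and 0 rose by limma (5.81% and 7.52% of all tested genes). With an unadjusted p under 0.05, 1 was higher. The adaptor Alyref fell from 39.4 ± 4.31 to 15.9 ± 1.99 and the helicase gene Ddx39 from 61.2 ± 1.93 to 29.6 ± 4.05. In epiblast against ICM these genes went both ways, with 5 higher and 2 lower (16.7% and 13.3% of all tested genes). The 5 were led by Cetn2 (1.16 ± 0.27), Thoc1 (1.29 ± 0.32) and Thoc6 (1.44 ± 0.39). The 2 were Cetn3 (-0.89 ± 0.29) and Poldip3 (-0.75 ± 0.24), named after their values were seen. Against diapaused ICM 7 rose in epiblast and 0 fell (18.6% and 16.0% of all tested genes), with 1 lower at an unadjusted p under 0.05. The 7 were led by Alyref (1.42 ± 0.23), Thoc7 (2.07 ± 0.37) and Thoc1 (1.74 ± 0.32).

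Cell division genes and markers of cell content differed between the same groups. The summed level of 25 genes of G2 phase and mitosis was 737 to 772 in ICM, 303 to 453 in diapaused ICM and 924 and 1015 in epiblast. As a share of each library's summed value it was 0.0776% to 0.102%, 0.0257% to 0.049% and 0.0894% and 0.0909%, with diapaused ICM below the others and ICM and epiblast overlapping. Of these 25, 12 fell and 0 rose in diapaused ICM against ICM (0 at an unadjusted p under 0.05), with 5.81% and 7.52% of all tested genes. In epiblast 6 rose and 2 fell against ICM (16.7% and 13.3%), and 9 of the 25 differences were negative. Against diapaused ICM 18 rose in epiblast and 1 fell (18.6% and 16.0%). The summed Ran cycle genes were at 379 to 595, 259 to 324 and 952 and 1009, and at 0.0526% to 0.0632%, 0.0233% to 0.0345% and 0.0888% and 0.0936% of the library, without overlap on either scale. Primitive endoderm markers (13 genes) summed to 499.9 to 591 in ICM, 1549 to 1912 in diapaused ICM and 50.7 and 52.3 in epiblast, with 9 of 12 tested markers higher and 1 lower in diapaused ICM. Visceral endoderm markers (10 genes) summed to 3.42 to 8.99 in blastocysts and to 21.0 and 67.6 in epiblast. The 11 markers of blood, immune and uterine cells summed to 48.1 to 134 in diapaused ICM and 5.13 to 10.1 in ICM. Only Cd68 and Laptm5 were tested, and both were higher in diapaused ICM than in ICM (7.52% of all tested genes). The other 9 did not reach 1 in 2 libraries. Of these, Hba-a1 was at 3.30 and 0.407 in diapaused ICM replicates 2 and 3 and at most 0.0645 elsewhere, Fcer1g was at 0.554 in diapaused ICM replicate 3 and at most 0.0048 elsewhere, and the remaining 7 were at 0.399 or less in every library. The part of cell division or of cell content in the members' differences was not tested.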

How the data were processed

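The authors deposited 1 table with a signal per gene and library, which its header calls adjusted TPM. Not given in the sources used here are its adjustment, quantification program, annotation and strand setting. Bowtie 0.12.5, DESeq and mm9 stand in the submitters' processing notes with no order of steps. Per the labels' protocols, the extracted RNA was amplified before library preparation. The deposited columns differ in total, so the deposited unit was treated as a signal rather than TPM, and the test planned for TPM was kept.

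Groups came from the sample titles. A gene was tested if 2 or more libraries reached 1, and log2(value + 1) was fitted with limma 3.58.1 in R 4.3.3, with a mean per group over all 8 libraries and a trend in the prior variance (5 residual and 3.97 prior degrees of freedom). Tests were two-sided with Benjamini-Hochberg adjustment over 17698 genes and a threshold of 0.05. The labels call the libraries biological replicates, each a separate pool. The script was tested on simulated data. The alternatives were pseudocounts of 0.1 and 5, no filter, quantile normalization, rescaling to equal sums without 43 abundant genes (over 1% of a library, mitochondrially encoded, or Npm1), only the groups compared, a replicate block, and leaving out each of the 8 libraries. Every member was placed in a role group. Those called are given with all their values, as are most fixed core genes. The other core genes (Nup98, Nup107, Ranbp2, Pom121 and Kpna7) are given as means or ranges. Of each list of non-members up to 3 with the smallest adjusted p are named. The values of 1 such gene are not reported here. The members, lists and markers were chosen with earlier results of these data known. Sequences are from RefSeq (GRCm38.p6). Depth is unknown, and so is the counting error.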

Additional observations from a re-analysis of the deposited data

How the results depend on the processing

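The count of members lower in diapaused ICM than in ICM (8) was 14 after rescaling without abundant genes and 3 to 8 when 1 library was left out, and 0 members were called higher in each of the 15 alternative analyses. All genes called in that comparison (2360) fell to 1278 with no filter on low values and ranged from 1404 to 2148 without 1 library. In epiblast against ICM the members higher (8) were 5 with no filter and 4 after rescaling without abundant genes, and without 1 library they ranged from 1 to 8, the members lower (3) from 0 to 3 and all genes called from 1788 to 5257. In epiblast against diapaused ICM the members higher (14) ranged from 5 to 16 and all genes called from 2539 to 6351 without 1 library. The members lower there (2) were 0 with no filter, after rescaling without abundant genes and with the replicate block, 1 after quantile normalization, and 0 to 3 without 1 library. Of the 8, 11 and 16 member calls in the 3 comparisons, 3, 1 and 4 held in all 15 alternatives, and no called member changed sign. Of uncalled members with separate groups, Nup62 (diapaused ICM against ICM) went to -0.0306, Nup85 (epiblast against ICM) to -0.0205 and Cse1l (epiblast against diapaused ICM) to 0.0218 after rescaling without abundant genes. Where a library is left out of epiblast, the lone sample is assumed to vary like the other groups. With the replicate block the members called were 7 lower in diapaused ICM against ICM, 6 higher and 2 lower in epiblast against ICM, and 14 and 0 in epiblast against diapaused ICM. Same-numbered libraries of ICM and diapaused ICM had correlations of deviations of 0.017, 0.103 and 0.131 across genes, and differently numbered ones -0.148 to 0.033. ICM replicate 1 correlated more with diapaused ICM replicate 2 (0.033) than with replicate 1. The labels do not state that the numbers mark a shared batch, so the main fit did not take them as pairs. Whether same-numbered libraries share a batch was not tested. The cause of these shifts was not tested.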

Other observations

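Genes of the nuclear lamina and envelope, in which the pores sit, changed in both directions in each comparison. Of 15 tested genes 2 rose and 2 fell in diapaused ICM against ICM (7.52% and 5.81% of all tested genes). Sun2, which links the nucleus to the cytoskeleton, was at 1.33, 0.939 and 1.67 in ICM, 9.54, 8.51 and 8.73 in diapaused ICM and 2.07 and 1.23 in epiblast, and rose in diapaused ICM (2.11 ± 0.22, adjusted p = 4.8e-04). Its relative Sun1 was at 77.4, 77.5 and 33.5 in ICM, 20.1, 21.8 and 22.2 in diapaused ICM and 5.35 and 7.23 in epiblast and fell (-1.42 ± 0.33, adjusted p = 0.023). Lmnb1, a B-type lamin gene, fell from 49.6 ± 9.61 to 20.8 ± 6.83 (-1.24 ± 0.27, adjusted p = 0.017). The differences of Sun1 and Sun2 had opposite signs, and the difference between them was not tested.

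In epiblast 4 of these 15 genes rose and 3 fell against ICM (16.7% and 13.3% of all tested genes), and 6 rose and 5 fell against diapaused ICM (18.6% and 16.0%). Lbr, the lamin B receptor that also takes part in sterol synthesis, was at 5.81, 6.15 and 5.97 in ICM, 7.24, 6.64 and 9.63 in diapaused ICM and 36.2 and 33.6 in epiblast, with both epiblast libraries above all others (2.36 ± 0.23, adjusted p = 1.6e-04 against ICM). Emd, for the inner membrane protein emerin, was at 23.0, 17.6 and 32.3 in ICM, 25.6, 22.0 and 24.5 in diapaused ICM and 109 and 85.9 in epiblast (1.99 ± 0.29, adjusted p = 0.0014 against ICM). Sun1 was lowest in epiblast (-3.05 ± 0.37, adjusted p = 5.6e-04 against ICM), and Sun2 was lower there than in diapaused ICM (-1.92 ± 0.24, adjusted p = 5.8e-04).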
